A study of Mus musculus with 10 samples.

Results

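The epidermal growth factor (EGF) receptor family was followed through 10 genes in livers of mice with acute liver injury, out of 38922 genes in each table. The 10 genes were fixed by name with earlier results of these data known, so counts over them are descriptive. They are 5 ligands (Hbegf, Areg, Ereg, Btc and Tgfa), 3 receptors (Egfr, Erbb2 and Erbb3) and 2 inhibitors of the receptors (Errfi1 and Lrig1). All 10 were found by their Ensembl identifiers. RNA-seq was performed on livers of male wild-type C57BL/6N mice, an inbred strain, aged 6 weeks. Saline was injected i.p. in 5 mice, written below as saline replicates 1 to 5. The 5 mice called CD95-Ab replicates 1 to 5 were injected i.p. with an antibody that activates CD95, the death receptor Fas, at 0.5 µg/g. All livers were taken at 6 h, each mouse gave its own library, and none of the mice carried a transgene. Library totals ranged from 25965699 to 62097636 counts in saline-injected controls and from 27480796 to 44962196 after CD95-Ab. At these totals 3 counts correspond to 0.0483 to 0.116 CPM, the counts scaled to a library of 1000000, which is about the lowest level that can be read. The CPM values below use adjusted totals (TMM factors), so this floor is only approximate for them. In saline replicate 5, for example, 3 counts of Areg were 0.0556 CPM.

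EGF family ligands are made as membrane proteins that a sheddase, chiefly ADAM17, cuts free, and they bind EGFR, the receptor through which hepatocytes receive signals for survival and for growth after tissue loss. ERBB2 has no known ligand and serves as a partner of the other receptors, whereas ERBB3 binds neuregulins, has little kinase activity of its own and couples to PI3-kinase. ERRFI1, also called MIG6, blocks the kinase of EGFR, and LRIG1 promotes degradation of ERBB receptors. HB-EGF, betacellulin and epiregulin can bind ERBB4 as well.

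Livers of mice injected with CD95-Ab had higher levels of all 5 ligands compared to saline-injected controls. The increases were 59.4-fold for Ereg, 30.3-fold for Areg, 27.9-fold for Hbegf, 2.83-fold for Btc and 2.28-fold for Tgfa. The sizes for Ereg and Areg rest on few counts in controls. With a prior count of 2 the log2 fold change was 3.99 for Areg and 4.70 for Hbegf, which reverses their order. Among receptors, Erbb3 was 3.41-fold lower, and neither Egfr, the most abundant receptor, nor Erbb2 passed the test. Both inhibitors likewise missed the threshold. The test was the quasi-likelihood test of edgeR across all 13719 genes that passed the filter on low counts, with Benjamini-Hochberg adjustment (FDR) and a threshold of 0.05. All 10 genes passed this filter, Areg and Ereg through the treated mice. By this test 5 of the 10 genes were higher, against 25.4% of all tested genes, and 1 was lower, against 22.0% (either direction, 47.3%). Hbegf, Areg and Ereg also passed the study's second threshold, a log2 fold change of 2 or more, as 6.59% of tested genes did, and none of the 10 genes was at -2 or less, as 1.11% were. With a filter of 10 counts in every mouse, Areg and Ereg were not tested, and the counts were 3 genes higher and 1 past both thresholds. Under that filter 2962 of all tested genes were higher and 2668 were lower. The percentages above do not apply to it, and its own shares were not computed. Whether 3 higher and 1 past both thresholds differ from all genes there was therefore not shown. In CPM the groups did not overlap for the same 6 genes, in the higher direction for 5 (18.6% of tested genes) and in the lower direction for 1 (14.7%).

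**Figure D1:**
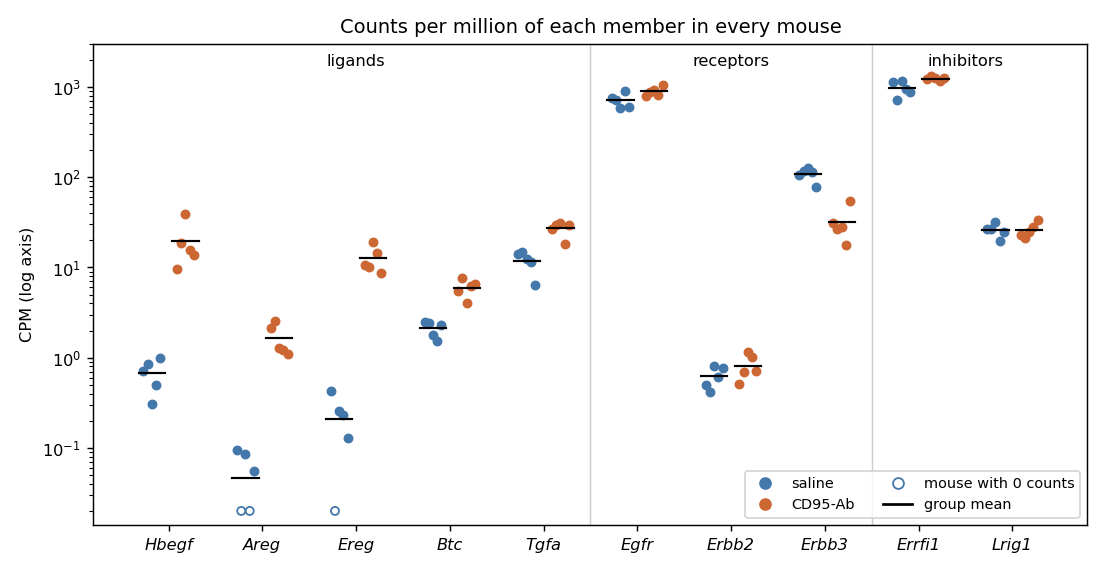
CPM on a log axis of the 10 genes in each of the 5 saline-injected (blue) and 5 CD95-Ab-injected (orange) mice, with the group mean as a black bar; open circles are mice with 0 counts, drawn at the foot of the axis. The orange points of the 5 ligands lie above all blue points, those of Erbb3 lie below, and the groups overlap for Egfr, Erbb2, Errfi1 and Lrig1.

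Some of the ligand genes are neighbours. Ereg, Areg and Btc lie within 328 kb on chromosome 5 (GRCm38, GENCODE release M21), from the start of Ereg at 91074622 to the end of Btc at 91402994, and the remaining 2 ligands lie on chromosomes 6 (Tgfa) and 18 (Hbegf). The set of RefSeq promoter windows used here (build GRCm38.p6) holds 8 windows for 7 of the 10 genes. It has none for Hbegf, Ereg and Erbb3, so their promoters were not searched. The 250 bases before the transcription start are shown for the 3 ligands with an entry, for Egfr, and for the internal start of Errfi1, which lies outside its annotated exons. They are shown because a cAMP response element (CRE, TGACGTCA, on either strand) was found in the windows of Areg and Errfi1, of which the first gene rose 30.3-fold and the second missed the threshold. Capitals mark the CRE.
Areg, chr5:91139349-91139598, plus strand: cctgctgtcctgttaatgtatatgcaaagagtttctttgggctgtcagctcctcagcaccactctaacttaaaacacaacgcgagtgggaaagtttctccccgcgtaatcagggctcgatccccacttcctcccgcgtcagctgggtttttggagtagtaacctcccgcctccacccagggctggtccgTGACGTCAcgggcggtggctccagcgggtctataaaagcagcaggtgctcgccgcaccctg
Errfi1, internal start, chr4:150854820-150855069, plus strand: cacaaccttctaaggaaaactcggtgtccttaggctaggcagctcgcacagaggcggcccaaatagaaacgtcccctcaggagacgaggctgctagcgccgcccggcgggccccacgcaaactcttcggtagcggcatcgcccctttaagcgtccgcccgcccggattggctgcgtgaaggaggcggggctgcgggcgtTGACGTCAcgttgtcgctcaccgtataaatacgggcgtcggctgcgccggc
Btc, chr5:91402995-91403244, minus strand: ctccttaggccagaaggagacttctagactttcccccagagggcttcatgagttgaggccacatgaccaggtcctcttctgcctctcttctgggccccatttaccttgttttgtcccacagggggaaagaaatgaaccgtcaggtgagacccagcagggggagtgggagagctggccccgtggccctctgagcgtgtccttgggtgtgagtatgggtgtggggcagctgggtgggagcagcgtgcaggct
Tgfa, chr6:86194972-86195221, plus strand: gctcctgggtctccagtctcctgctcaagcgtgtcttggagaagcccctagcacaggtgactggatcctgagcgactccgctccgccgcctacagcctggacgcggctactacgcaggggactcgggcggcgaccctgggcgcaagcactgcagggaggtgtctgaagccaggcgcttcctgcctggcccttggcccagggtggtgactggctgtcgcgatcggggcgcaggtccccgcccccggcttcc
Egfr, chr11:16751953-16752202, plus strand: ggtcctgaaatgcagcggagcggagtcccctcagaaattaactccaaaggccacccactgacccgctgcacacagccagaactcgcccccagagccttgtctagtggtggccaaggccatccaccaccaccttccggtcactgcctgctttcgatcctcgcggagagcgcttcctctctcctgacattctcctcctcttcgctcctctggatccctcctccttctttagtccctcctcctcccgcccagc
The other window of Errfi1, which lies upstream of the gene and is not shown, holds neither the CRE nor TATAAA. The CRE begins 61 bases before the start of Areg and 51 bases before that of Errfi1. Both windows also hold the letters TATAAA, read on the strand of the gene, which begin 31 and 28 bases before the start. Of 32536 promoter windows of the same length, 1.56% hold the CRE and 7.55% hold TATAAA. The AP-1 motif TGANTCA, on either strand and in 6.73% of all windows, and the CArG box bound by serum response factor, in 1.48%, were in none of the 8 windows. A match is a stretch of letters, and binding was not measured.

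Ereg encodes epiregulin, a ligand of EGFR and ERBB4 (ENSMUSG00000029377; chromosome 5, 91074622 to 91093646). Its level was 0.423, 0, 0.254, 0.231 and 0.130 CPM in saline replicates 1 to 5, which is at most 18 counts. After CD95-Ab it was 10.7, 10.2, 18.99, 14.6 and 8.70 CPM. All 5 treated mice thus stood well above the controls, and the highest treated mouse was 2.18 times the lowest. The log2 fold change was 5.89 (standard error 0.48, FDR = 2.79e-06, edgeR). This is 59.4-fold with a 95% interval of 28.9 to 122, and the log2 value was 5.57 at a prior count of 2. With so few counts in controls, the size of the increase is uncertain.

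Areg encodes amphiregulin, a ligand of EGFR (ENSMUSG00000029378; chromosome 5, 91139599 to 91148432). Saline replicates 1 to 5 had 4, 0, 3, 0 and 3 counts, or 0.0468 ± 0.0451 CPM (SD, n = 5), so Areg was hardly detectable in controls. CD95-Ab replicates 1 to 5 had 2.15, 2.55, 1.27, 1.21 and 1.08 CPM, with replicates 1 and 2 above the others. These levels correspond to 30 to 80 counts per mouse. Its log2 fold change of 4.92 (standard error 0.53, FDR = 2.10e-05, edgeR) is 30.3-fold with an interval of 13.5 to 67.6, and it moves with the prior count, to 3.99 at a prior of 2.

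Hbegf encodes heparin-binding EGF-like growth factor, a ligand of EGFR and ERBB4 (ENSMUSG00000024486; chromosome 18, 36504927 to 36515805). Levels in saline replicates 1 to 5 were 0.706, 0.860, 0.310, 0.500 and 1.001 CPM. In CD95-Ab replicates 1 to 5 they were 9.63, 18.5, 39.6, 15.7 and 13.6 CPM. CD95-Ab replicate 3 stood above the rest of its group, and the lowest treated mouse was still above every control. The log2 fold change was 4.80 (standard error 0.43, FDR = 5.66e-06, edgeR), with a range of 4.36 to 4.99 when each mouse was left out in turn.

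Btc encodes betacellulin, a ligand of EGFR and ERBB4 (ENSMUSG00000082361; chromosome 5, 91357261 to 91402994). It was measurable in every control, at 2.49, 2.40, 1.80, 1.54 and 2.30 CPM, and reached 5.42, 7.71, 4.02, 6.18 and 6.60 CPM after CD95-Ab. The lowest treated mouse was replicate 3, which was the highest for Hbegf and Ereg. The log2 fold change was 1.50 (standard error 0.21, FDR = 1.19e-04, edgeR).

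Tgfa encodes transforming growth factor alpha, a ligand of EGFR (ENSMUSG00000029999; chromosome 6, 86195223 to 86275719). It was the most abundant ligand in controls, with 14.2, 14.9, 12.4, 11.4 and 6.45 CPM in saline replicates 1 to 5. CD95-Ab replicates 1 to 5 had 26.8, 29.6, 31.5, 18.2 and 29.3 CPM. The groups were separated by a small margin, with saline replicate 2 next to CD95-Ab replicate 4. In FPKM they overlapped, since saline replicates 1 and 2 had 3.82 and 4.07 and CD95-Ab replicate 4 had 3.69. Tgfa had the smallest increase of the 5 ligands, at 1.19 on the log2 scale (standard error 0.22, FDR = 9.17e-04, edgeR).

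The ligands did not follow one order among the treated mice. The highest mouse was CD95-Ab replicate 3 for Hbegf, Ereg and Tgfa, and replicate 2 for Areg and Btc. The lowest was replicate 1 for Hbegf, 3 for Btc, 4 for Tgfa and 5 for Areg and Ereg. Relative spread was widest for Hbegf, with a coefficient of variation of 60.5% in treated mice, and narrowest for Tgfa, with 19.4%.

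Egfr encodes the receptor of all 5 ligands (ENSMUSG00000020122; chromosome 11, 16752203 to 16918158). Controls had 763, 720, 592, 895 and 594 CPM, and mice injected with CD95-Ab had 793, 881, 925, 817 and 1046 CPM. Saline replicate 4 was above 3 of the 5 treated mice, and the log2 fold change was 0.32 with a 95% interval of -0.02 to 0.67 (FDR = 0.109, edgeR), that is, 0.987 to 1.59 times the control level. The antisense gene Egfros lies inside Egfr and had on average 6.40 counts in controls and 43.6 after CD95-Ab, which is small beside the 20250 to 47232 counts of Egfr.

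Erbb2 was barely expressed, with 0.620 ± 0.171 CPM in controls against 0.817 ± 0.259 CPM in treated mice (SD, n = 5 in both groups), or 14 to 41 counts per mouse (ENSMUSG00000062312; chromosome 11, 98412470 to 98437716). At this depth its change was not resolved, with a log2 fold change of 0.38 and a 95% interval of -0.26 to 1.01 (FDR = 0.309, edgeR). Mien1 overlaps it on the opposite strand with a mean of 1088 counts in controls and 693 after CD95-Ab. The sources used here do not state that counting used strand, so the few Erbb2 counts are uncertain.

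Erbb3 encodes the receptor of neuregulins (ENSMUSG00000018166; chromosome 10, 128567523 to 128589652). Controls had 106, 117, 125, 114 and 78.8 CPM. Mice injected with CD95-Ab had 31.0, 26.6, 28.1, 17.7 and 54.8 CPM. Every treated mouse was below every control, and CD95-Ab replicate 5 was the nearest to them. The log2 fold change was -1.77 (standard error 0.26, 95% interval -2.34 to -1.20, FDR = 1.90e-04, edgeR), and it was -2.06 without CD95-Ab replicate 5, which takes it past the second threshold. In these whole-liver samples fewer cells of a type and less RNA per cell cannot be told apart.

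The fall of Erbb3 was also seen against Egfr inside each library, where scaling between mice plays no part. In FPKM, the deposited values per transcript length, controls had 15.1 to 22.4 Erbb3 per 100 Egfr (median 16.8). After CD95-Ab the ratio was 2.76 to 6.50 (median 3.87), with no overlap.

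Errfi1 was the most abundant of the 10 genes in both groups (ENSMUSG00000028967; chromosome 4, 150853919 to 150868892). Controls had 1147, 711, 1179.7, 962 and 877 CPM, and treated mice had 1228, 1310.2, 1251, 1156 and 1259 CPM. Only CD95-Ab replicate 4 fell below the highest control, and the coefficient of variation was 19.9% in controls and 4.53% after CD95-Ab. The log2 fold change was 0.35 (standard error 0.16, FDR = 0.0956, edgeR). DESeq2 gave 0.34 with an adjusted p = 0.0469, so the call depends on the test.

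Lrig1 showed the smallest difference, with 26.4, 26.9, 31.5, 19.4 and 25.0 CPM in controls and 22.9, 21.02, 24.6, 27.9 and 33.5 CPM after CD95-Ab (ENSMUSG00000030029; chromosome 6, 94604529 to 94700158). The ranges of both groups overlapped almost fully. Its log2 fold change was 0.01, and the 95% interval of -0.33 to 0.35 corresponds to between 0.793 and 1.27 times the control level (FDR = 0.979, edgeR). The sign changed with the scaling of the libraries. Slc25a26 overlaps Lrig1 on the opposite strand, with a mean of 215 counts in controls and 108 after CD95-Ab, beside 505 to 1513 counts of Lrig1. Whether counting used strand is not stated, so shared reads could affect the interval.

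**Figure D2:**
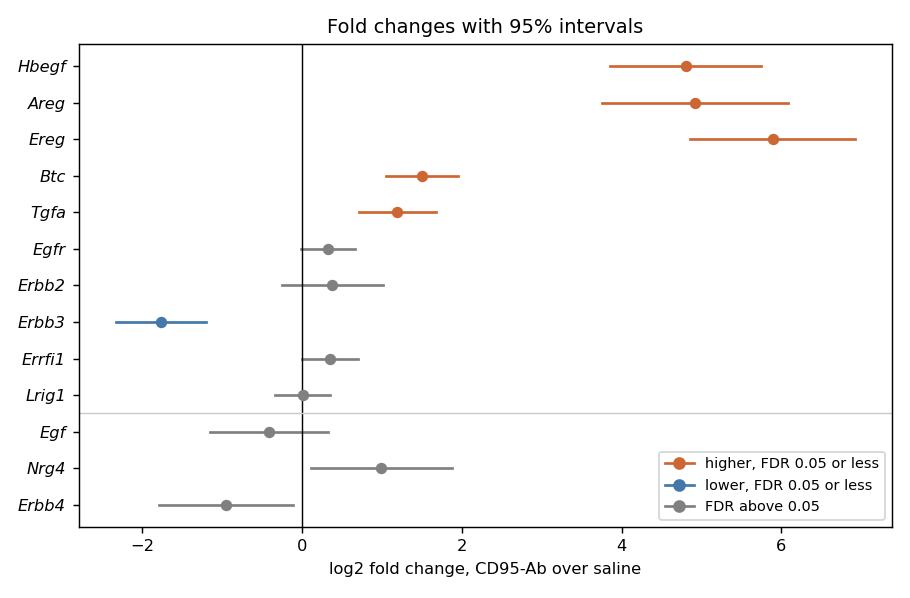
Log2 fold change of CD95-Ab over saline (points) with its 95% interval (lines) for the 10 genes and, under the grey line, for Egf, Nrg4 and Erbb4; orange marks genes higher and blue genes lower at an FDR of 0.05 or less, grey those above it. The 5 ligands run from 1.19 to 5.89, Erbb3 is at -1.77, and the remaining 4 of the 10 genes lie between 0.01 and 0.38.

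Levels of different genes were compared in FPKM, which accounts for length. In controls the order by median was Errfi1 (325 FPKM), Egfr (119), Erbb3 (19.95), Lrig1 (6.07), Tgfa (3.09), Btc (0.71), Hbegf (0.34), Erbb2 (0.12), Ereg (0.06) and Areg (0.04). Ranges of neighbours overlapped for Lrig1 and Tgfa and for each neighbouring pair from Hbegf to Areg. After CD95-Ab the order was Errfi1 (431 FPKM), Egfr (127), Tgfa (7.06), Hbegf (5.89), Lrig1 (4.82), Erbb3 (4.45), Ereg (2.98), Btc (2.18), Areg (0.99) and Erbb2 (0.14). From Tgfa to Areg every neighbouring pair overlapped, so ranks inside this stretch are not resolved. Erbb3 was above every ligand in all 5 controls, and in treated mice its range of 2.52 to 9.24 FPKM lay among theirs.

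The sum of the 5 ligands was 2.50 to 5.46 FPKM in controls and 15.2 to 28.4 FPKM after CD95-Ab. Its make-up differed as well. Tgfa gave 53.6% to 76.7% of the sum in controls and 23.7% to 38.4% after CD95-Ab. Hbegf went from 3.47% to 15.2% in controls to 24.4% to 53.7%, and Ereg from at most 2.24% to between 11.1% and 19.9%. The sum of ligands nevertheless stayed under the level of Egfr in every mouse.

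**Figure D3:**
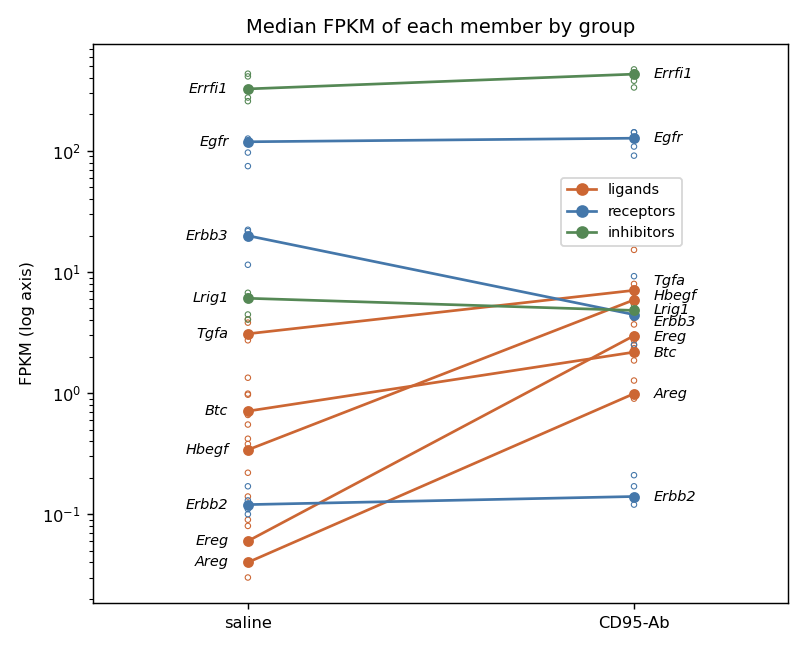
Median FPKM on a log axis in saline-injected and CD95-Ab-injected mice, joined for each of the 10 genes, with small open circles for single mice above 0; ligands are orange, receptors blue and inhibitors green. The ligand lines rise, the Erbb3 line falls from 19.95 to 4.45 into their range, and Errfi1 and Egfr stay on top.

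The other genes of the family complete the ligands and receptors. Egf, whose product is the name-giving ligand, had 0.618 ± 0.215 CPM in controls against 0.468 ± 0.179 CPM in treated mice (SD, n = 5; log2 ratio -0.42, FDR = 0.334, edgeR). Nrg4, a neuregulin that binds ERBB4, had 4.65 to 16.8 CPM in controls and 8.90 to 37.6 CPM in treated mice (log2 fold change 0.99, FDR = 0.0622, edgeR). Erbb4, the fourth receptor, had 1.48 to 2.77 CPM in controls and 0.417 to 2.59 CPM in treated mice (log2 fold change -0.95, FDR = 0.0595, edgeR). Neither Nrg4 nor Erbb4 passed, although DESeq2 gave adjusted p-values of 0.0341 and 0.0279.
Nrg1, the ligand of ERBB3 and ERBB4, was too low to be tested, with 2, 0, 1, 0 and 3 counts in controls and 19, 29, 9, 8 and 13 counts in treated mice. Without the filter its log2 fold change was 3.87 (FDR = 2.04e-04, edgeR). Epgn, which lies beside Ereg on chromosome 5, had at most 1 count in any control and 1 or 2 counts in each treated mouse. Nrg2 had at most 4 counts in any mouse, and Nrg3 had 0 counts in all 10 mice, which allows up to 3 counts per library.

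The window on chromosome 5 with 150 kb either side of Ereg, Areg and Btc holds 7 genes, of which 4 were tested. The gene beyond Epgn, Mthfd2l, which encodes a mitochondrial folate enzyme, had a log2 fold change of 0.30 (FDR = 0.482, edgeR), and Parm1 on the far side had at most 24 counts in any mouse. Among the 4 tested genes, the 3 ligands were called higher, as 25.4% of all tested genes were. Areg and Ereg passed the filter on low counts only through the treated mice, so this count is descriptive. Without the filter on low counts Epgn was called as well (FDR = 0.0279, edgeR), on 0 to 2 counts per mouse.

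Ligand release and the pathway after the receptor were described with lists of 71 genes, the rest of the family included, of which 66 were tested. In these lists 35 genes were higher and 5 were lower, against 25.4% and 22.0% of all tested genes. The median log2 fold change was 0.54 beside 0.01 over all tested genes. The lists were chosen with earlier results of these data known. These counts, and those of each list below, are therefore descriptive and do not test the lists. All 7 sheddases and their regulators were higher, as 25.4% of all tested genes were (median log2 fold change 1.24). Timp3, an inhibitor of ADAM17, rose from 11.9 ± 5.01 to 63.1 ± 25.1 CPM, and Rhbdf2, an iRhom needed for ADAM17 to mature, from 11.3 ± 3.46 to 57.8 ± 10.6 CPM (SD, n = 5 in both groups). Log2 fold changes were 2.40 for Timp3, 2.36 for Rhbdf2, 1.74 for the second iRhom gene Rhbdf1 and 1.24 for Adam12. Adam17 itself, named after its value was seen, had 15.7 ± 1.49 CPM in controls and rose to 34.8 ± 4.08 CPM (SD, n = 5; log2 ratio 1.15, FDR = 1.20e-05, edgeR).

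Of 27 adaptors and kinases, 9 were higher, 4 were lower and 14 did not pass, with a median log2 fold change of 0.07. These shares lie near the 25.4% and 22.0% of all tested genes. The largest changes were those of Gab2 (1.88), which encodes a docking protein for PI3-kinase, of Plcg1 (-1.30), which encodes phospholipase C gamma, of the kinase gene Src (1.16) and of Stat3 (0.97). Plcg1 fell from 32.3 to 42.6 CPM in controls to 10.6 to 19.6 CPM in treated mice.

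Among 18 negative regulators, 11 were higher and 1, Lrig3, was lower (log2 fold change -1.24), against 25.4% and 22.0% of all tested genes, with a median log2 fold change of 1.39. Lrig3, named after its value was seen, belongs to the same family as Lrig1. Dusp5, a phosphatase of ERK, had 1.35 ± 0.333 CPM in controls and rose to 38.2 ± 16.2 CPM (SD, n = 5; log2 ratio 4.80, FDR = 7.77e-07, edgeR). Log2 fold changes were 3.18 for Spry2 and 2.39 for Spry4, which encode inhibitors of RAS-ERK signaling, and 2.27 for the phosphatase gene Dusp4.

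Of 11 tested growth factor response genes, 8 were higher and 3 did not pass, against 25.4% higher among all tested genes. The largest log2 fold changes were 6.69 for Fosl1, a subunit of AP-1, 5.84 for Plaur, the urokinase receptor, 5.62 for Ier3 and 5.19 for the sphingosine kinase gene Sphk1. Fosl1 had at most 4 counts in any control, and with a prior count of 2 its value was 5.89. These genes also answer to stress and to cytokines. Fos, also named after its values were seen, did not pass (log2 fold change 1.55, FDR = 0.134, edgeR), as controls ranged from 6.37 to 156 CPM.

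**Figure D4:**
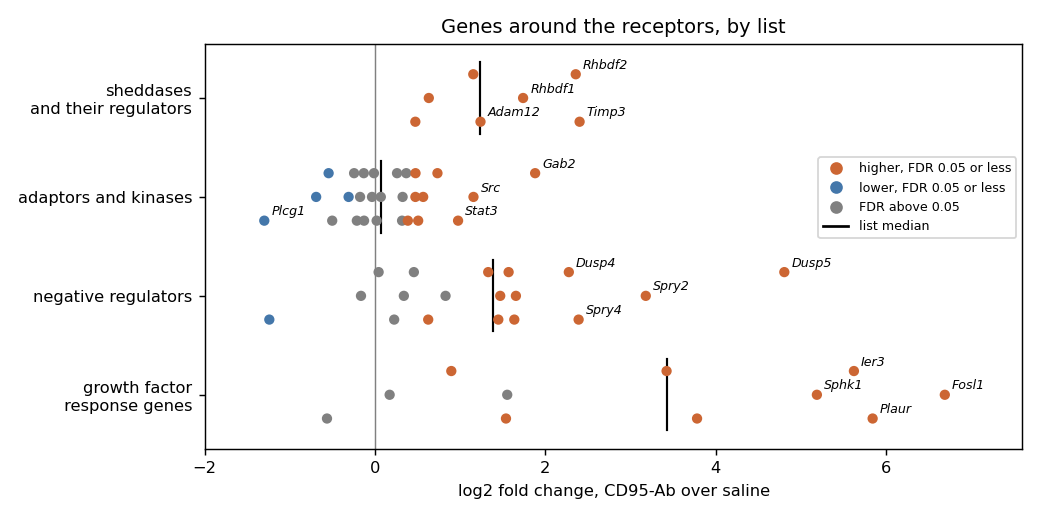
Log2 fold change of CD95-Ab over saline for the tested genes of 4 lists, 1 point per gene, with the list median as a black bar; colours mark calls as orange (higher), blue (lower) and grey (FDR above 0.05), and up to 4 called genes per list are named. Sheddase genes all lie right of 0, adaptors and kinases spread on both sides, and response genes reach 6.69.

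The genes most like the 3 most changed ligands were sought among 12146 tested protein-coding genes with at least 10 counts in every treated mouse. Likeness was the root mean square difference, over 10 mice, between log2 CPM taken relative to the saline mean. For Hbegf these were Apold1 (0.25), Dusp5 (0.26) and Timp1 (0.38), with log2 fold changes of 4.74, 4.80 and 5.19. For Areg they were Dusp8 (0.43), Hist1h4b (0.54) and Capg (0.55). For Ereg the nearest were Thbs1 (0.75), Gm10800 (0.75) and Hist1h4n (0.77), which is a looser match. Gm10800, Hist1h4n and Hist1h4b had mean levels of 0.0124, 0.0141 and 0.0188 CPM in controls, below what can be read, so their likeness rests on the prior count of 2 and on the filter on treated mice. Histone H4 genes are also near-identical copies that can share reads. Areg and Ereg themselves had at most 4 and 18 counts in any control, so all their matches depend on the prior count of 2. Timp1, with a mean of 0.124 CPM in controls, was near the lowest readable level too.

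Markers of several cell types differed between the groups, and their part in the results above was not tested. The counts of marker genes below stand beside 25.4% higher and 22.0% lower among all tested genes. Summed over 6 hepatocyte genes, levels were 99044 to 122418 CPM in controls and 42898 to 79393 CPM after CD95-Ab, with Alb and Ttr called lower and 4 genes not called. Alb made up most of this sum, with means of 84727 CPM in controls and 41434 CPM after CD95-Ab. Log2 fold changes of the 4 genes not called were between -0.72 (Cps1) and -0.34 (Hnf4a). Of the neutrophil genes, 5 of 6 were higher and Ly6g was not tested, with sums of 2.92 to 7.19 CPM in controls and 95.4 to 408 CPM after CD95-Ab. Erythroid genes were higher in 5 of 5 (135 to 323 CPM against 1064 to 33995 CPM), and platelet genes in 4 of 4 (2.17 to 8.27 against 9.79 to 30.4 CPM).
Cholangiocyte genes were higher in 4 of 5 tested, with Cftr too low to test (18.4 to 33.9 against 48.4 to 186 CPM), sinusoidal endothelial genes in 4 of 5 (40.8 to 99.8 against 128 to 240 CPM), and T and NK cell genes in 5 of 5 (0.704 to 2.80 against 4.20 to 5.04 CPM). Sox9 and Spp1 made up most of the cholangiocyte sum after CD95-Ab (means of 58.4 and 65.9 CPM), and Krt7 was not called. Among endothelial genes Lyve1 had a log2 fold change of 3.41. The other called genes there had 0.88 to 0.98, and Kdr was not called. Of 5 stellate cell genes 2 were higher and 1 was lower (53.9 to 73.1 against 67.3 to 148 CPM), and of 5 Kupffer cell genes 1 was higher (109 to 364 against 187 to 457 CPM). The 5 mast cell and basophil genes had at most 7 counts in any mouse (0.0282 to 0.0742 against 0.128 to 0.358 CPM). CD95-Ab replicate 3, with the highest Hbegf and Ereg, also had the highest sums of its group for hepatocyte, neutrophil, erythroid, platelet, cholangiocyte, endothelial, stellate cell, and mast cell and basophil genes. Saline replicate 5 and CD95-Ab replicate 4 stood apart from the rest on the second principal component of all tested genes. Without them the 5 ligands were still called higher, with log2 fold changes from 1.14 for Tgfa to 5.65 for Ereg, and Erbb3 was still called lower, at -1.72.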

How the data were processed

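Liver RNA of 10 mice was analysed, 5 per group, with groups and replicate numbers from the sample labels. Per the labels, libraries were made from 500 ng of RNA and read as pairs of 100 bp. The authors assigned reads to genes with RSEM version 1.2.19, and the mouse annotation and genome build are not given in the sources used here. The deposited expected counts carry no normalization and were rounded to whole numbers here before any use. The deposited FPKM values are scaled by RSEM for length and library. RSEM splits reads with several possible origins between genes. The study's methods name a human annotation, whereas the identifiers are those of mouse genes.

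Genes were kept by filterByExpr with a minimum count of 10, scaled with TMM factors and tested by edgeR 4.0.16 in R 4.3.3 (quasi-likelihood, no term but group). CPM are counts per 1000000 of the TMM-adjusted total. Standard errors came from the F statistic, and 95% intervals from the t distribution with the degrees of freedom of the fit. FPKM served for levels between genes and, with limma 3.58.1 and a pseudocount of 0.1, as an alternative. DESeq2 1.42.0, other scalings and filters, a replicate block, left-out mice and an FDR of 0.01 were further alternatives. The code was tested on simulated counts. Symbols and positions are from GENCODE M21 (37606 of 38922 identifiers matched), and promoters are from RefSeq.

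Named genes were all 10 members, the rest of the family, and up to 4 called genes per list. Members and lists were chosen with earlier results of these data known. Mice of a group differed by more than sampling noise (chi-square of 42.4 to 554 per degree of freedom), so each counts as 1 sample. The labels call the mice biological replicates and give no batch.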

Additional observations from a re-analysis of the deposited data

How the results depend on the processing

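The calls of the 5 ligands and of Erbb3 kept their direction and passed the threshold under every alternative in which the gene was tested, with log2 fold changes of 4.25 to 5.06 for Hbegf, 3.39 to 5.26 for Areg, 4.33 to 6.36 for Ereg, 1.30 to 1.61 for Btc, 1.03 to 1.29 for Tgfa and -2.06 to -1.63 for Erbb3. The lowest values of Hbegf, Areg, Ereg and Btc came from limma on log2(FPKM + 0.1), where the pseudocount shrinks low genes by construction. With at least 10 counts in every mouse, Areg and Ereg were not tested, which left 3 ligands called higher and 1 gene past both thresholds. Of all genes tested there, 2962 were higher and 2668 were lower, and their shares were not computed. At an FDR of 0.01, 3 genes of the wider lists were lower in place of 5, as were 1897 of all tested genes in place of 3015. Leaving out each mouse in turn gave 3 to 7 lower genes of the wider lists, 3 of them without CD95-Ab replicate 1. DESeq2 added Errfi1, for 6 members called higher, and called 3615 of all tested genes higher in place of 3480. The sign of Lrig1, never called, was reversed at -0.0083 with DESeq2 and with RLE factors, at -0.088 with total counts only, at -0.069 with upper-quartile factors, at -0.030 without a filter, at -0.083 with limma on FPKM, and at -0.042 without saline replicate 5 and CD95-Ab replicate 4 together (chosen after seeing the data). When each mouse was left out in turn, Lrig1 ranged from -0.10 to 0.082. It was negative without saline replicate 4 or 5 or CD95-Ab replicate 4 or 5, and positive without any other mouse. Mice with the same number correlated by -0.27 to 0.26 in their deviations from the group means. No sign of pairing by number was seen, but so few values cannot exclude it. With the replicate number as a block, 5 members were higher and 1 was lower, 3 passed both thresholds, 37 genes of the wider lists were higher and 7 were lower, and 3310 and 2677 of all genes were higher and lower. Depth limits Erbb2, Areg and Ereg in controls, and the neuregulins other than Nrg4.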
